A study of Mus musculus with 4 samples.

Results

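The genes described here are the clustered histone genes of the mouse, taken as every symbol of the deposited gene list that begins with Hist1h, Hist2h, Hist3h or Hist4h. There were 67 such genes among the 32285 listed. Of these, 58 had 10 or more UMIs (unique molecular identifiers, each standing for 1 captured RNA molecule) over all kept cells and are described with values: 5 H1, 14 H2A, 16 H2B, 11 H3 and 12 H4 genes. The other 9 held 30 UMIs in all, beside 49452 for the 58. Just inside the limit were Hist1h2bk with 14 UMIs and Hist1h2ag with 15, and just outside it Hist1h2aa with 9 and Hist1h2ao with 6. The data are 4 droplet single-cell RNA libraries of macrophages sorted from the lungs of female mice, 1 library per group. The groups were wildtype FVB mice at 16 weeks (wildtype early), MMTV-HER2 mice at 16 weeks (HER2 early), wildtype FVB mice at 32 weeks (wildtype late) and MMTV-HER2 mice at 32 weeks (HER2 late), and values are given in that order throughout. MMTV-HER2 mice express the HER2 oncogene from the MMTV promoter and are a model of breast cancer, and per the labels the late stage was marked by palpable tumours. The promoter drives the transgene in the mammary gland, and the macrophages studied here come from the lung. How many mice went into a library, and which antibodies sorted the cells, the sources used here do not state.

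A nucleosome is built of the core histones H2A, H2B, H3 and H4, and the linker histone H1 binds where DNA enters and leaves it. The clustered genes supply the histones that package newly copied DNA, and their transcription and RNA stability rise in S phase of the cell cycle. Their mRNAs typically have no introns and end in a short stem-loop in place of a poly(A) tail, a structure bound by the stem-loop binding protein SLBP. Some of these genes also give polyadenylated transcripts, as described in differentiated cells, and an assay that primes on poly(A) such as the one used here would capture the polyadenylated form far better. Replacement histones such as H3.3 and H2A.Z are encoded outside the clusters by polyadenylated mRNAs and are made throughout the cell cycle. Alveolar macrophages are the resident macrophages of the airspace and can renew themselves by division.

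After filtering, 5449, 5126, 5129 and 6554 cells remained, with 22093833 to 32665775 UMIs per library. Alveolar macrophages (AM cells) were the 4840, 4428, 4251 and 5741 cells with at least 0.4% of their UMIs from Chil3, Ear1, Ear2, Fabp1, Lpl and Plet1. Their 13 alveolar markers, 6 of which set the class, summed to between 18268 and 21892 CPM (a gene's UMIs scaled to the total UMIs of the same cells, as counts per 1e6), against 887 to 1274 CPM in the other cells. The 7 interstitial macrophage markers summed to between 347 and 696 CPM in AM cells and to between 15052 and 17734 CPM in the other cells. Libraries shared between 1 and 13 cell barcodes. The 10 T cell markers summed to 50.1 CPM in AM cells of wildtype early and to between 3.001 and 4.09 CPM in those of the other 3 libraries, and 196, 40, 22 and 25 AM cells held a T cell marker UMI. T cell marker RNA was thus highest in wildtype early, and its part in the results was tested only by leaving those cells out, as given beside the results.

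The stem-loop was looked for after the stop codon of each member's annotated transcript (GENCODE M21, GRCm38), as 16 bases that begin with GG, end with CC and pair as a stem of 6 base pairs around a loop of 4 bases. It was found in 41 of the 58 members, between 21 and 58 bases after the stop codon, in 8 distinct forms. The 3 most frequent forms are shown because the mRNA end is what this assay reads, with the paired stem in capitals and the loop in lower case, each at 1 member's position.
Hist1h1c, chr13:23739512-23739527, plus strand: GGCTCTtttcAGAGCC
Hist1h4d, chr13:23581950-23581965, plus strand: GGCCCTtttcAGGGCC
Hist1h3c, chr13:23745047-23745062, minus strand: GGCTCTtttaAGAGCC
The first form was in 23 members, the second in 6 and the third in 5. Of the 17 members in which none was found, 12 had fewer than 40 bases annotated after the stop codon, so that the window did not reach it. In 22 members the annotated transcript ran 100 or more bases past the stem-loop, and in 15 of these it held AATAAA or ATTAAA, the letters of the common poly(A) signals, after the loop on the transcript's strand. These 22 members gave 57.8% of all member UMIs, and the 19 with a shorter end gave 10.95%.

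Promoters, as RefSeq gives them on GRCm38.p6 from 250 bases before to 50 bases after the start, were matched for 53 of the 58 members. Motifs were searched on both strands of these 300 bases, and none of the 4 motifs contains another. TATAAA was present in 30 of the 53 promoters (56.6%), against 15.7% of all 27025 promoters in the table. CCAAT was present in 45 (84.9%, against 41.1%), namely in every matched H1, H2A, H2B and H3 promoter and in 3 of 11 H4 promoters. ATTTGCAT, the octamer, was present in 11 (20.8%, against 1.97%), 5 of them H2A and 6 of them H2B promoters. AAACACA, the H1 box, was present in 6 (11.3%, against 8.22%), 4 of them H1 promoters. The 120 bases before the start are shown for 3 H1 genes and 1 H3 gene whose levels are compared below, 5′ to 3′ on the gene's strand, with these motifs in capitals on either strand (ATTGG is CCAAT on the other strand).
Hist1h1b, chr13:21780626-21780745, minus strand: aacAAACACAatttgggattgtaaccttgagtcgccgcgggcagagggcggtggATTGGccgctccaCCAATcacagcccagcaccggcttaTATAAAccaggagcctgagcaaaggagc
Hist1h1e, chr13:23622559-23622678, minus strand: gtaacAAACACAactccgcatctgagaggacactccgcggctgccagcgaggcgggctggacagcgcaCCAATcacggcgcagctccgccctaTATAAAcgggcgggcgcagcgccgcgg
Hist1h1c, chr13:23738687-23738806, plus strand: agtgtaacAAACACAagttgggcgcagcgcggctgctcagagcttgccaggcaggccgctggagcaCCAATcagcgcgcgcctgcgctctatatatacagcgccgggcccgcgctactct
Hist1h3c, chr13:23745522-23745641, minus strand: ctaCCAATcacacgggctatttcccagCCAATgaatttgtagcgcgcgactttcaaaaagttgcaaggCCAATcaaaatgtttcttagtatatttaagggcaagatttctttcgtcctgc
All 3 H1 promoters hold the H1 box and a CCAAT box at similar places, and the H3 promoter holds 3 CCAAT boxes. A match to these letters is a description of the window and was not tied to the binding of any factor.

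Summed over all 67 genes, AM cells held 499, 437, 382 and 436 CPM of clustered histone RNA. The counting intervals (exact Poisson, 95%, counting error only) were 490 to 508, 427 to 447, 374 to 390 and 428 to 444 CPM, so wildtype early was the highest library, wildtype late the lowest, and the 2 HER2 libraries overlapped. By histone, H1 genes summed to 178 ± 16.2 CPM (SD over the 4 libraries, n = 4), H2B genes to 119 ± 19.2, H4 genes to 64.98 ± 5.47, H2A genes to 53.3 ± 7.78 and H3 genes to 23.7 ± 6.28. This SD mixes genotype, age and library, since each group had 1 library. The levels count captured RNA ends, and the share of a gene's RNA that is polyadenylated and so captured can differ by gene. They therefore compare a gene across cells and not 1 gene with another. RNA free in the droplets held 778, 470, 419 and 572 CPM of the same members, and made up 0.467 to 3.51% of AM UMIs as judged from haemoglobin RNA.

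**Figure D1:**
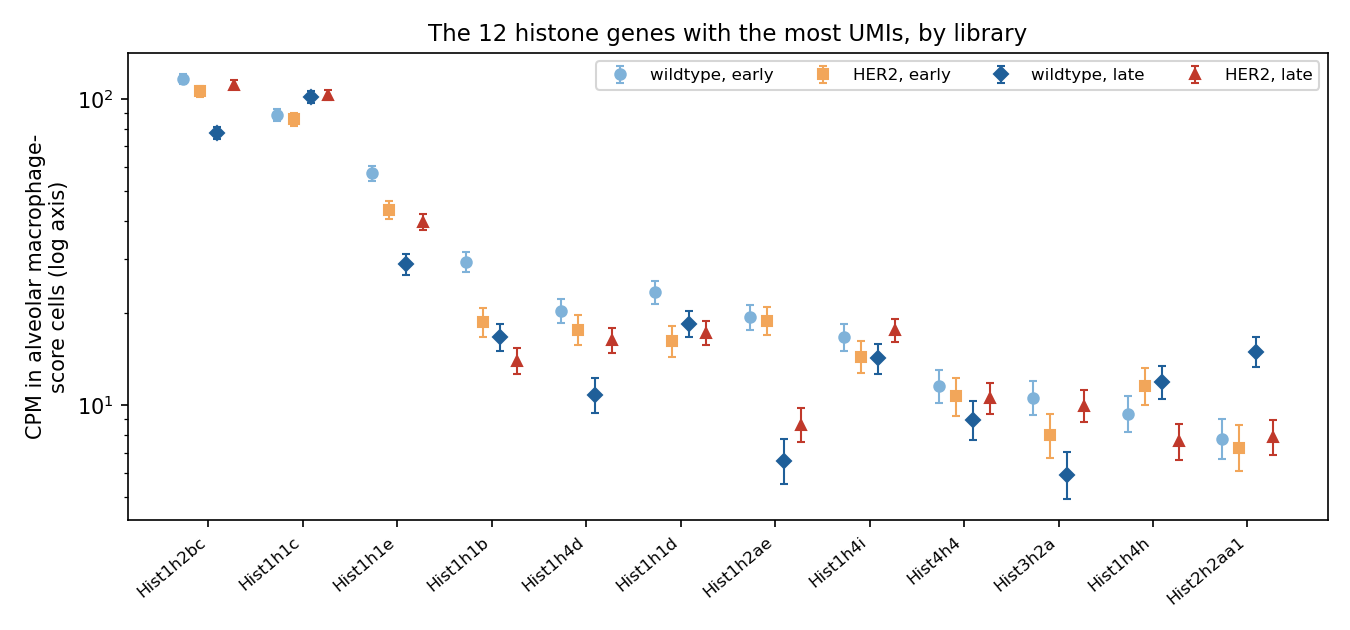
Level in AM cells (CPM, log axis) of the 12 members with the most UMIs, one point per library. Bars are exact Poisson 95% intervals. Hist1h2bc drops to 77.4 CPM in wildtype late, where Hist1h1c stands at 102 CPM, and Hist1h2ae is lower in both late libraries than in both early ones.

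The 12 members with the most UMIs are described first. Hist1h2bc (chromosome 13, 23684199 to 23692908), which encodes an H2B, stood at 116, 106, 77.4 and 111 CPM in AM cells. Hist1h1c (H1.2; 23738808 to 23740367) stood at 88.7, 85.7, 102 and 103 CPM. Hist1h1e (H1.4; 23620629 to 23622558) stood at 57.1, 43.4, 28.8 and 39.6 CPM. Wildtype late was thus the lowest library for Hist1h2bc and Hist1h1e but not for Hist1h1c. Hist1h1b (H1.5; 21779883 to 21780625) stood at 29.3, 18.7, 16.7 and 14.0 CPM. Hist1h1d (H1.3; 23553262 to 23560686) stood at 23.4, 16.2, 18.4 and 17.2 CPM. For both, wildtype early was the highest library. The H4 genes Hist1h4d and Hist1h4i stood at 10.8 to 20.4 and at 14.2 to 17.6 CPM, Hist1h4h at 7.61 to 11.9 CPM and Hist4h4 (chromosome 6) at 8.93 to 11.5 CPM. The H2A genes Hist1h2ae, Hist3h2a (chromosome 11) and Hist2h2aa1 (chromosome 3) stood at 6.57 to 19.4, 5.93 to 10.6 and 7.26 to 14.95 CPM. Of the 58 members, 39 have another transcript that is at least 95% identical over at least 90 of the last 300 bases, the part a 3′ assay reads. For those, among them Hist1h2ae, Hist1h4h, Hist2h2aa1, Hist1h2ap and Hist1h3c, the split of UMIs between copies is uncertain. Hist1h1e also overlaps Hist1h2be on the same strand, and Hist3h2a overlaps Trim17, so the UMIs of these genes are uncertain as well. How reads that match several genes were counted, the sources used here do not state.

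The members were then compared between AM cells that held a UMI of Top2a (topoisomerase II alpha, used in S phase and mitosis) or Mcm6 (a subunit of the replicative helicase) and AM cells that held neither. There were 483, 369, 375 and 517 such cells, with a median of 5127 to 6363 UMIs, against 3644 to 4634 UMIs in the cells without. Summed histone RNA was 1225, 1109, 827 and 833 CPM in the cells with and 381, 353, 324 and 381 CPM in the cells without. The level with was thus above the level without in each of the 4 libraries, by 3.21-, 3.14-, 2.55- and 2.19-fold. T cell marker RNA in the cells with was 165, 1.47, 0.802 and 10.2 CPM, and without AM cells holding a T cell marker UMI the summed histone level of the cells with was 1131, 1116, 832 and 838 CPM. T cell markers in the cells without stood at 31.5, 3.19, 3.35 and 3.23 CPM, so they were higher in the cells with in wildtype early and HER2 late. Endothelial markers stood at 7.82, 7.34, 33.7 and 6.44 CPM in the cells with and at 33.1, 33.2, 27.3 and 34.1 CPM in the cells without. Interstitial macrophage markers stood at 492, 449, 354 and 1015 CPM with and at 323, 492, 347 and 652 CPM without. The part of either cell type in the result was not tested.

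**Figure D2:**
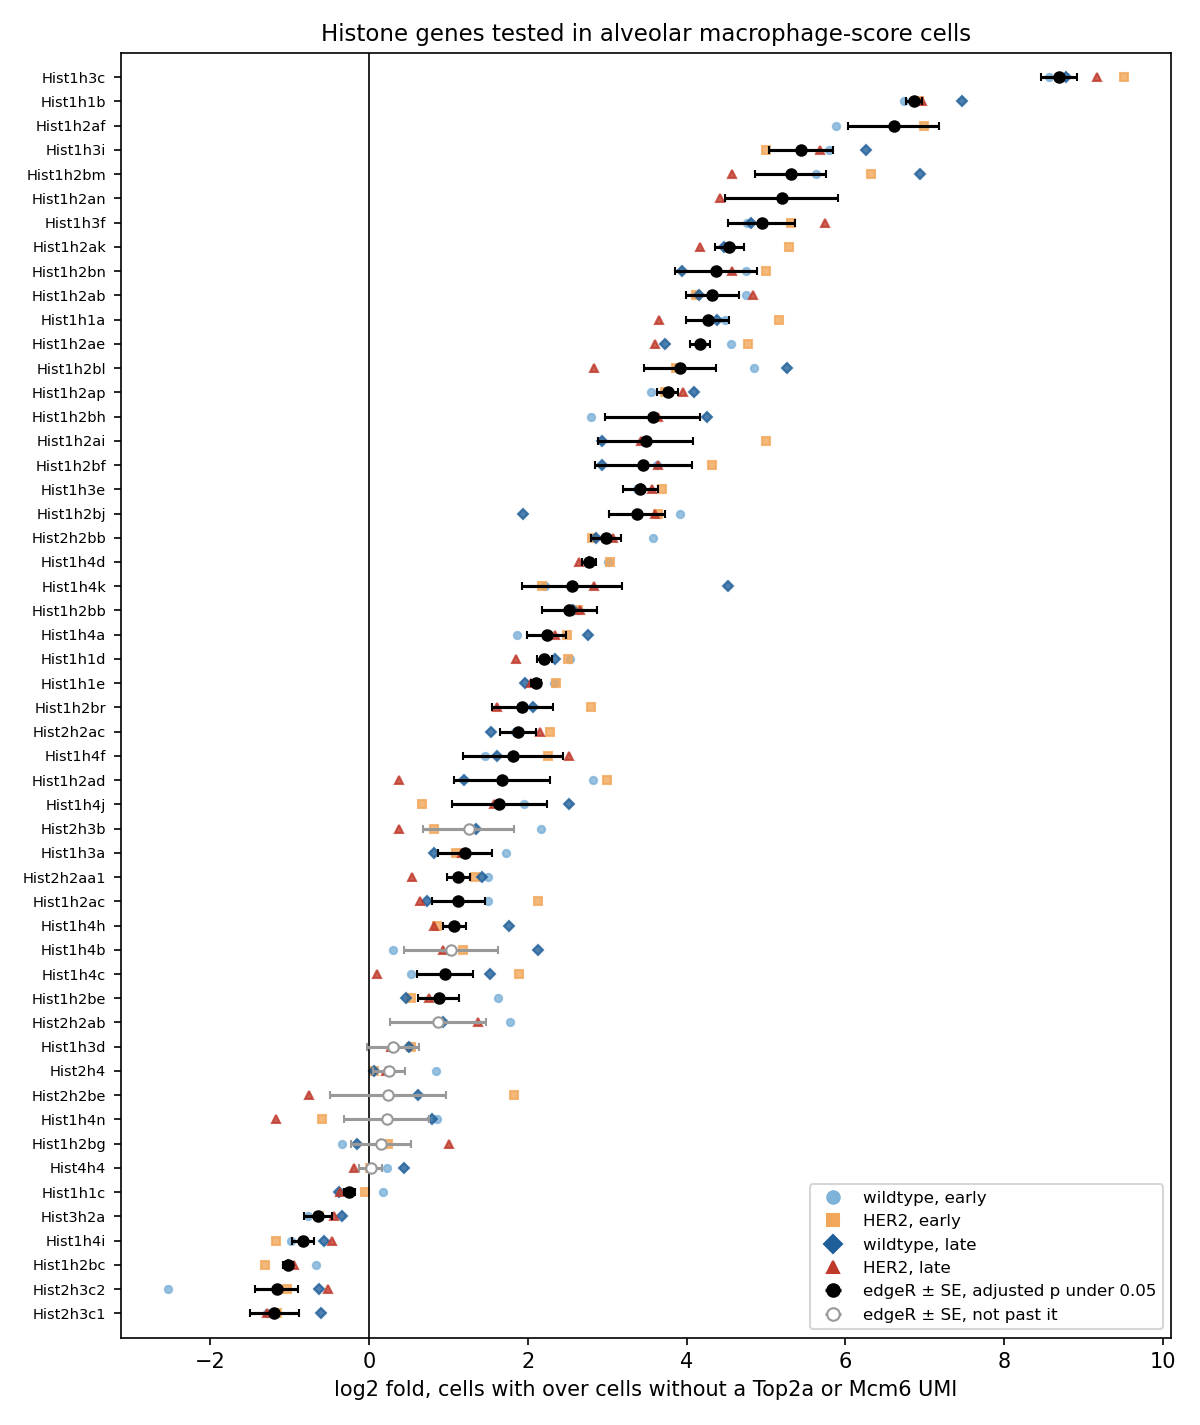
Log2 fold between AM cells with and without a Top2a or Mcm6 UMI for the 52 members tested, sorted by fold. Small symbols are the 4 libraries, black circles with bars the edgeR fold and its standard error where the adjusted p was under 0.05, and open circles those that did not pass. Hist1h3c is at the top with 8.69, and the 6 members called lower are at the bottom.

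Of the 52 members that had 30 or more UMIs in this contrast, 37 were higher in the cells with (edgeR's quasi-likelihood test, library as block, adjusted p under 0.05), against 13.1% of all 12177 genes tested. The 6 that were lower compare with 12.8% of all genes, and 9 did not pass. The median log2 fold was 2.01 over the members and -0.03 over all genes. Members that passed the filter only through the cells with had to differ, so the count describes the tested members and not all 58.

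The member with the highest log2 fold was the H3 gene Hist1h3c. It held 57.6, 44.5, 22.8 and 47.1 CPM in the cells with, from 184, 91, 57 and 161 UMIs, and 0.152, 0.0614, 0.0523 and 0.0819 CPM in the cells without, from 3, 1, 1 and 2 UMIs. Its log2 fold was 8.69 ± 0.23 (SE; edgeR adjusted p = 6.16e-28), higher in 4 of 4 libraries, and 98.6% of its AM UMIs (95% exact binomial interval 97.1 to 99.4%) lay in the cells with. Hist1h1b, a linker histone, held 199, 157, 138 and 108 CPM with and 1.87, 1.29, 0.785 and 0.860 CPM without. Its log2 fold was 6.86 ± 0.10 (edgeR adjusted p = 1.56e-36). Both genes were nearly absent from cells without either marker. The other 4 with the highest folds were Hist1h2af (6.61), Hist1h3i (5.44), Hist1h2bm (5.31) and Hist1h2an (5.20), each higher in 4 of 4 libraries. Hist1h2af held 56 UMIs with and 3 without over the 4 libraries, a ratio of CPM of 133 with a counting interval of 43.3 to 665. Hist1h2an held 26 UMIs with and 4 without, and it fell under the limit of UMIs when any 1 library was left out.

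Hist1h1e and Hist1h1d, the other well-covered H1 genes, lay between these. Hist1h1e held 184, 153, 84.6 and 118 CPM with and 36.6, 29.7, 21.6 and 28.7 CPM without, a log2 fold of 2.10 ± 0.06 (edgeR adjusted p = 5.07e-26). Hist1h1d held 81.1, 60.6, 63.7 and 47.1 CPM with and 14.0, 10.6, 12.5 and 13.1 CPM without, a log2 fold of 2.21. The groups did not overlap for either gene. Hist1h2ae rose by a log2 fold of 4.17, Hist1h4d by 2.77, Hist2h2aa1 by 1.13 and Hist1h4h by 1.08, all past the test. Hist4h4 held 13.1, 10.8, 11.6 and 9.36 CPM with and 11.2, 10.7, 8.58 and 10.7 CPM without, and its log2 fold of 0.02 ± 0.14 (edgeR adjusted p = 0.949) did not pass.

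Hist1h2bc went the other way. It held 77.3, 46.0, 40.5 and 61.4 CPM in the cells with and 122, 113, 82.3 and 118 CPM in the cells without, lower in 4 of 4 libraries, with a log2 fold of -1.02 ± 0.07 (edgeR adjusted p = 1.10e-15). Hist1h4i held 9.08, 6.85, 10.0 and 13.2 CPM with and 17.9, 15.4, 14.8 and 18.2 CPM without, a log2 fold of -0.83 (edgeR adjusted p = 7.72e-06). The groups did not overlap for either gene. The H3 genes Hist2h3c1 and Hist2h3c2 had log2 folds of -1.19 and -1.16, from 20 and 31 UMIs in the cells with, and the H2A gene Hist3h2a one of -0.64. All 3 were lower in 4 of 4 libraries and passed the test (edgeR adjusted p between 0.00105 and 0.00453). Hist1h1c held 98.6, 83.1, 80.2 and 82.5 CPM with and 87.1, 86.1, 104 and 106 CPM without, so it was lower in 3 of 4 libraries and higher in wildtype early. Its log2 fold of -0.25 ± 0.07 (edgeR adjusted p = 0.00393) was 0.08 when the cells were split by Top2a alone, and it was not called with DESeq2 or without either late library, where it was -0.15 or lower. Without wildtype early, Hist3h2a (-0.54) and Hist2h3c2 (-0.74) were not called. The number of members called lower was 3 with DESeq2, with no library block, or with every cell thinned to 2000 UMIs, where 19 were called higher. When cells were split by 2 or more UMIs of the DNA replication list instead, Hist2h3c1 (0.07) and Hist3h2a (0.01) were no longer lower. Members of 1 histone class thus had folds of opposite sign in this split, but for Hist2h3c1 and Hist1h1c the sign depended on which genes split the cells.

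The annotated end of the transcript, shown for the stem-loops, was set beside these folds as a description, where 13.1% of all genes were higher and 12.8% lower. Among members whose transcript runs 100 or more bases past the loop, 12 of 21 tested were higher, 5 were lower and 4 did not pass, with a median log2 fold of 0.96. Among those that end within 100 bases of it, 13 of 15 were higher and the other 2 did not pass, with a median of 1.88. Among those with no loop found, 12 of 16 were higher and 1 was lower, with a median of 3.70. The 1 lower was Hist1h2bc, whose transcript is annotated 742 bases past the stop codon. The annotated length past the loop was 840 bases in Hist1h1c, 330 in Hist1h4i, 1643 in Hist3h2a, 1167 in Hist2h3c1 and 377 in Hist2h3c2. Each of the 6 members that fell thus has a long annotated end, but so do members that rose, such as Hist1h1e with 1153 bases and Hist1h4d with 770. Which end the captured RNA had was not measured.

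The split by 2 genes was followed by 1 on the DNA replication list (20 genes such as Pcna and the Mcm genes) and the mitosis list (18 genes such as Mki67 and Cenpf), chosen after the data had been seen. AM cells with 5 or more UMIs of both lists numbered 152, 95, 89 and 117. Their summed histone RNA was 2639, 3080, 2336 and 2203 CPM. AM cells with 5 or more UMIs of the replication list and fewer of the mitosis list numbered 346, 268, 374 and 393, and held 269, 243, 232 and 260 CPM. Cells high in the replication list alone thus held less clustered histone RNA than cells low in both lists, which held 388, 354, 329 and 384 CPM, in each of the 4 libraries. Cells high in the mitosis list alone, 34 to 67 per library, held 638, 512, 580 and 561 CPM. Median depth was 6447 to 7765 UMIs in cells with both lists and 5596 to 6733 in cells with replication alone. Cells low in both lists had a lower median depth, 3597 to 4524 UMIs. Deeper cells reach 5 UMIs of a list more readily, and the part of depth in these levels was not tested. T cell marker RNA was 314, 1.62, 0 and 3.11 CPM in cells with both lists, and the endothelial markers stood at 6.52, 1.62, 98.6 and 4.15 CPM, highest in wildtype late. In cells with replication alone the endothelial markers stood at 6.38, 19.98, 60.8 and 50.8 CPM. The part of these cell types in the result was not tested. In cells with both lists the alveolar markers summed to between 13732 and 17670 CPM, and the interstitial ones to 608, 266, 335 and 790 CPM. With replication alone the alveolar markers summed to between 19471 and 21946 CPM, so the ranges did not overlap. The interstitial ones there stood at 368, 701, 462 and 1051 CPM, and T cell markers at 40.4, 1.82, 4.91 and 10.7 CPM. The part of these differences was not tested either.

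**Figure D3:**
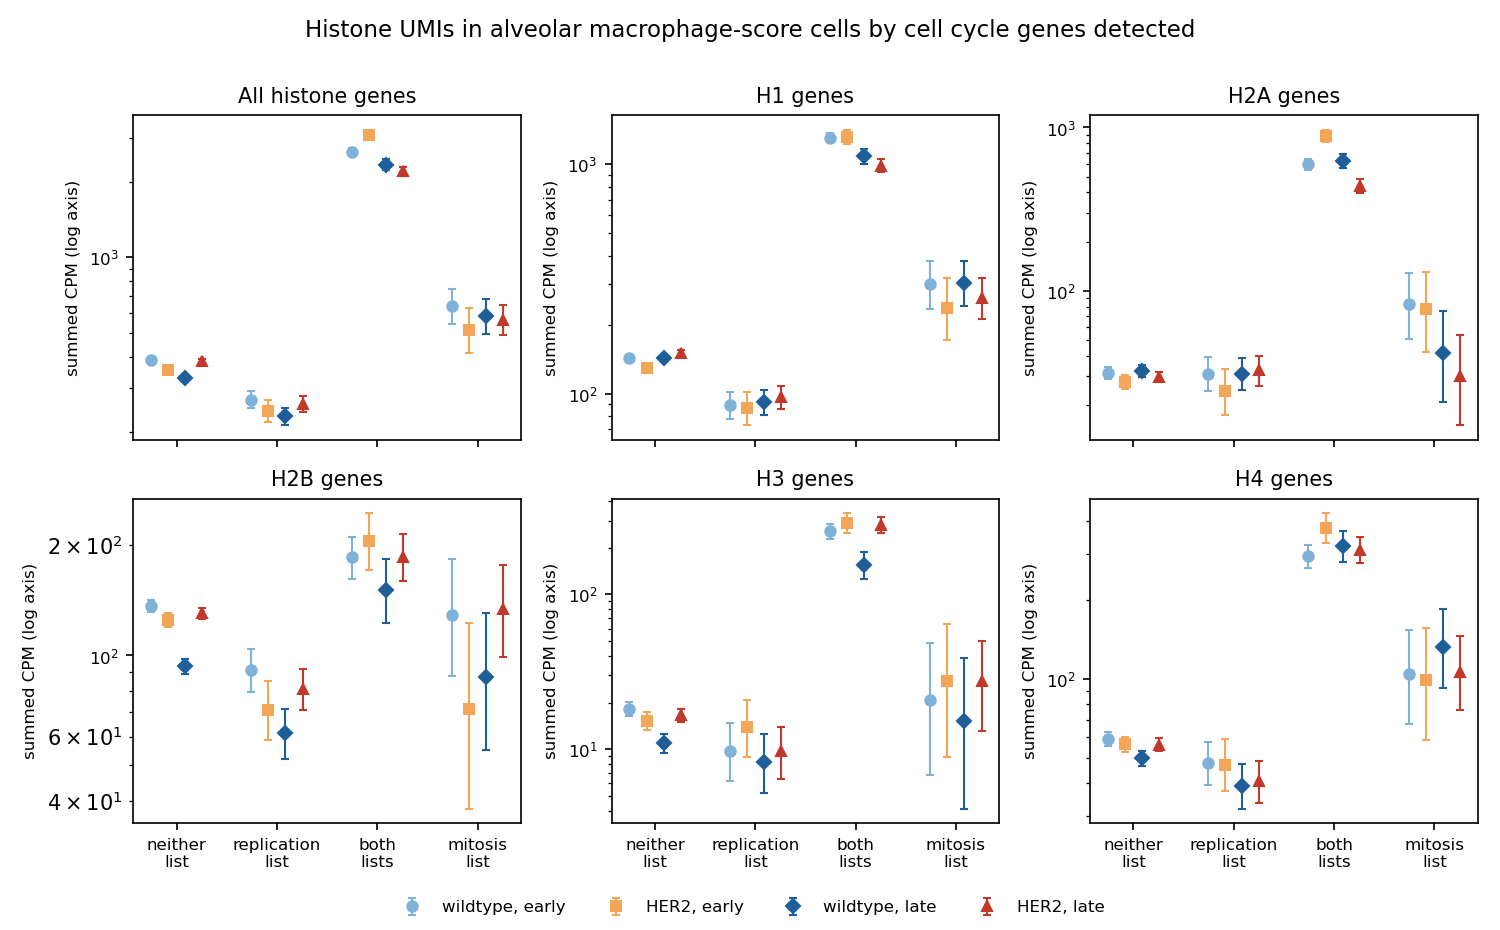
Summed level (CPM, log axis) of each histone class and of all histone genes in AM cells of 4 states, set by 5 or more UMIs of the DNA replication list and of the mitosis list, one symbol per library with its exact Poisson 95% interval. Every panel is highest for cells with both lists. The H2B panel spans the smallest range, and its sum includes Hist1h2bc, which fell with both lists.

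The rise with both lists was uneven over the sums of the histone classes. H1 genes went from 91.0 ± 4.17 CPM with replication alone to 1176 ± 166 CPM with both lists (SD, n = 4 libraries), H2A genes from 29.7 ± 3.70 to 637 ± 187, H3 genes from 10.4 ± 2.43 to 245 ± 62.1 and H4 genes from 43.8 ± 4.45 to 325 ± 35.6. H2B genes went from 76.1 ± 13.0 to 182 ± 22.8 CPM. Hist1h2bc made up most of this H2B sum with replication alone and fell with both lists (values below). The H2B sum thus does not describe the other H2B genes, which were not summed apart. Of 35 members with enough UMIs, 30 were higher with both lists than with replication alone (edgeR, library as block, adjusted p under 0.05), against 14.9% of 10094 genes. The 2 that were lower compare with 12.9% of all genes. The median log2 fold was 4.03 over the members and 0.00 over all genes. Members such as Hist1h2af and Hist1h2bm passed the limit of UMIs only through the cells with both lists and had to differ, so this count describes the tested members and not all 58.

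Hist1h1b held 508, 510, 498 and 373 CPM with both lists and 3.40, 1.21, 1.89 and 2.07 CPM with replication alone, a log2 fold of 7.58 ± 0.13 (edgeR adjusted p = 6.66e-31). Hist1h3c held 148, 149, 83.7 and 165 CPM with both lists, and only 3 UMIs over the 4 libraries with replication alone. Its ratio of CPM was 447 with a counting interval of 152 to 2177. Hist1h2af had no UMI in cells with replication alone, and against a floor of 3 UMIs over the group it was at least 51.2-fold higher with both lists. With the mitosis list alone, Hist1h1b held 58.4, 49.5, 18.9 and 13.7 CPM, from 5 to 14 UMIs per library. All 3 genes were thus far lower with replication alone than with both lists. The replication list differed between these classes too. Of its 20 genes 16 were higher with both lists and 0 lower, against 14.9% and 12.9% of all genes, with a median log2 fold of 0.94. Hist1h1e went from 25.5, 26.0, 15.1 and 19.3 CPM with replication alone to 431, 436, 235 and 325 CPM with both lists. Hist1h1c, which was lower in the cells with Top2a or Mcm6, went from 50.2, 51.5, 64.2 and 66.3 to 152, 138, 126 and 135 CPM, a log2 fold of 1.15 ± 0.11 (edgeR adjusted p = 7.40e-11). It held 89.8, 87.4, 106 and 106 CPM in cells low in both lists, so it was lowest with replication alone and highest with both. The 2 that fell were Hist1h2bc (log2 fold -1.83) and Hist3h2a (-1.32). Hist1h2bc held 23.6, 11.3, 14.9 and 28.0 CPM with both lists, 81.2, 64.2, 52.9 and 72.2 CPM with replication alone and 127, 115, 83.6 and 120 CPM with neither. Its order over the 3 states was the same in each library. Hist3h2a was called lower with all 4 libraries and, of the 4 fits that left out a library, only in the one without HER2 early. Hist4h4 (0.80), Hist2h4 (0.94) and Hist1h4i (-0.42), all H4 genes, did not pass.

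Lists of related genes were read in the same contrasts. They were chosen with earlier results of these data known, and their counts stand beside 13.1% of all genes higher and 12.8% lower for Top2a or Mcm6, and 14.9% and 12.9% for both lists. For Top2a or Mcm6, of 13 tested genes of histone mRNA expression and 3′ processing 9 rose and none fell, among the 4 with the most UMIs Slbp (log2 fold 1.28; 85.4 to 117 CPM with, 36.0 to 41.0 CPM without), the exonuclease gene Eri1 (0.90) and Casp8ap2 (0.72). Cpsf2, a cleavage factor gene, had a log2 fold of 0.12 and did not pass. Of 20 histone chaperone genes 15 rose and none fell, among them Nap1l1 (0.63), Supt16 (0.39) and Npm1 (0.10), while Atrx (0.06) did not pass. Among the replacement and variant histones 7 of 9 tested rose and 1 fell. H2afz (H2A.Z) went from 614, 581, 395 and 538 CPM without to 1344, 1226, 758 and 1109 CPM with, a log2 fold of 0.96. H3f3b and H3f3a (H3.3) rose by 0.08 and 0.11, and H2afj fell by 0.23. The median stood at a log2 fold of 0.50 over the 9 variants, against 2.01 over the clustered members. All 20 replication genes and all 18 mitosis genes tested rose, led by number of UMIs by Pcna (1.71), Mcm7 (2.43), Mcm3 (2.25) and Lig1 (2.82), and by Mki67 (4.86), Ube2c (5.59), Cenpf (5.36) and Birc5 (5.34). For both lists against replication alone, 8 of 13 processing genes, 16 of 20 chaperone genes and 8 of 9 variants rose, and 1 variant, H2afj, fell.

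AM cells were also compared with all other kept cells. Summed histone RNA of the other cells was 1069, 348, 394 and 566 CPM, above AM cells in wildtype early and HER2 late, below them in HER2 early, and overlapping with them in wildtype late by counting intervals. The other cells of wildtype early held 184 T-marker cells (2 or more T cell receptor UMIs), against 73, 61 and 40 in the other libraries. Those T-marker cells held 2279, 602, 694 and 1204 CPM of histone RNA, and C1q-high cells, which carry interstitial macrophage markers, held 623, 354, 318 and 467 CPM. Within T-marker cells, those with a Top2a or Mcm6 UMI, 42, 6, 4 and 8 cells, held 5333, 2220, 2826 and 2491 CPM.

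Against the other cells, 6 of 54 members tested were higher in AM cells (edgeR, library as block, adjusted p under 0.05) and 18 were lower, where the background was 34.0% of 13879 genes higher and 34.0% lower. The median log2 fold was -0.65 over the members and 0.02 over all genes. With library totals in place of TMM scaling the median of all genes moved to -0.44, and 5 members were higher and 31 lower. Without wildtype early, 7 were higher and 9 lower. The members higher in AM cells were led by Hist2h3c2 (log2 fold 2.97 ± 0.29), Hist1h2bc (2.80 ± 0.13) and Hist2h3c1 (1.64 ± 0.28), each higher in 4 of 4 libraries with an edgeR adjusted p of 9.77e-06, 7.48e-08 and 0.000501, and called in every fit that left out a library. Hist1h2bc held 28.4, 18.6, 18.8 and 16.2 CPM in the other cells, against 77.4 to 116 CPM in AM cells. These 3 genes are also among the 6 that were lower in AM cells with Top2a or Mcm6. Both contrasts use the AM cells, so the overlap is not independent, and its share over all genes was not counted. A Top2a or Mcm6 UMI was held by 104 of 609, 67 of 698, 54 of 878 and 114 of 813 other cells. Hist1h1c (log2 fold 1.25) and Hist1h4i (1.49), from the same 6, were higher in AM cells too. Hist3h2a, the last of them, was not: its log2 fold was -0.46, and -0.34 and not called without HER2 early. The lowest were Hist3h2ba (-3.41 ± 0.59), Hist1h2bl (-1.67 ± 0.35) and Hist1h2bh (-1.61 ± 0.43). Hist3h2ba had 13 UMIs in all AM cells and fell under the limit of 30 UMIs without wildtype early, where Hist1h2bh (-1.15) was not called. Hist1h4h, the sixth member called higher (0.56), was called in 1 of the 4 fits that left out a library, the one without wildtype early. It was higher in 2 of 4 libraries. Such counts of libraries compare CPM, without the TMM scaling that the folds and calls use. Hist1h1b held 211, 19.9, 18.8 and 73.3 CPM in the other cells, and its log2 fold of -1.13 (edgeR adjusted p = 0.0343) was not called without wildtype early (-0.69) or without HER2 late.

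The 4 comparisons between libraries have 1 library on each side. No test was made, the intervals are exact binomial ones for counting error only, and genotype or age cannot be told apart from library. Each library enters 2 of the 4 comparisons, so those comparisons share it. The summed histone level in AM cells was 1.14-fold lower in HER2 early than in wildtype early (log2 -0.19, -0.23 to -0.15), and 1.14-fold higher in HER2 late than in wildtype late (log2 0.19, 0.15 to 0.23). It was 1.31-fold lower in wildtype late than in wildtype early (log2 -0.39, -0.43 to -0.34), and between HER2 late and HER2 early the log2 fold was -0.00 (-0.04 to 0.04). The last value was 0.11 without cells holding Top2a or Mcm6 and -0.13 without the 5 members with the most UMIs. The value at 32 weeks was 0.0918 without Hist1h2bc alone and 0.0485 without those 5 members. Without cells holding Top2a or Mcm6 the value at 16 weeks was -0.11 and that between wildtype libraries -0.24. Without AM cells holding a T cell marker UMI the value at 16 weeks was -0.13 and that between wildtype libraries -0.33. Among AM cells with a Top2a or Mcm6 UMI the genotypes differed at 32 weeks by a log2 of 0.01 (-0.07 to 0.09), and among AM cells without by 0.23 (0.19 to 0.28).

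**Figure D4:**
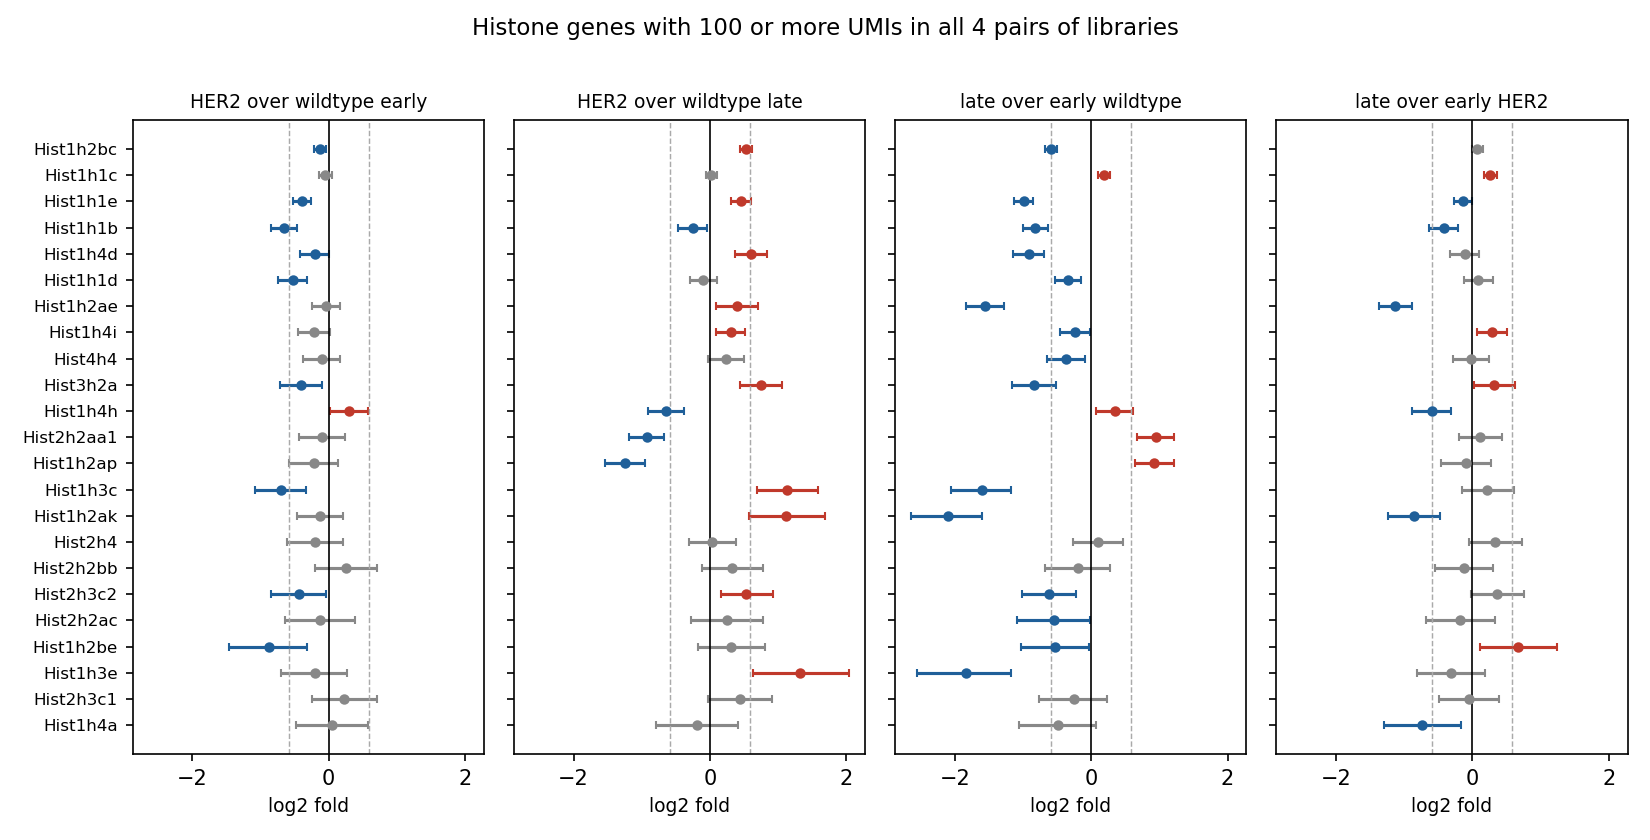
Log2 fold in AM cells for the 23 members with 100 or more UMIs in all 4 pairs of libraries, one panel per comparison, with exact binomial 95% counting intervals. Intervals above 0 are red, those below 0 blue and those that include 0 grey, and dashed lines mark 1.5-fold. Hist1h3c lies below 0 at 16 weeks and above 0 at 32 weeks.

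At 16 weeks, none of 24 members with 100 or more UMIs was 1.5-fold or more higher in HER2 early, against 0.443% of all 9705 genes, and 3 were 1.5-fold or more lower, against 1.07%. As medians, the log2 fold was -0.17 over these members and -0.03 over all genes. The members' median was -0.0730 without cells holding Top2a or Mcm6, and -0.0926 without AM cells holding a T cell marker UMI, whose RNA stood at 50.1 CPM in wildtype early and 3.001 CPM in HER2 early. The 3 lower were Hist1h1b (29.3 and 18.7 CPM, 1.57-fold), Hist1h3c (8.15 and 5.02 CPM, 1.62-fold) and Hist1h2be (3.92 and 2.13 CPM, 1.84-fold). Their counting intervals lay below 0. Without AM cells holding a T cell marker UMI the log2 folds were -0.34 for Hist1h1b, -0.48 for Hist1h3c and -0.73 for Hist1h2be, so only Hist1h2be of the 3 was still past 1.5-fold. The highest by the interval bound were Hist1h4h (log2 0.30, 0.02 to 0.58), Hist1h1c (-0.05, -0.14 to 0.05) and Hist2h2bb (0.25, -0.20 to 0.71), of which the last 2 included 0. In these libraries 9 of the 18 mitosis genes were also 1.5-fold or more lower in HER2 early, and none of the 20 replication genes. These counts include AM cells holding a T cell marker UMI. In cells with both lists T cell marker RNA stood at 314 CPM in wildtype early and 1.62 CPM in HER2 early.

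At 32 weeks, 5 of 23 members were 1.5-fold or more higher in HER2 late, against 1.73% of 10007 genes, and 3 were 1.5-fold or more lower, against 5.07%. The median log2 fold was 0.30 over the members and -0.20 over all genes. The highest were the H3 genes Hist1h3c (2.68 and 5.85 CPM, 2.18-fold) and Hist1h3e (1.11 and 2.76 CPM, 2.49-fold) and the H2A gene Hist1h2ak (1.81 and 3.91 CPM, 2.17-fold). The lowest were Hist1h2ap (13.1 and 5.57 CPM, 2.36-fold), Hist2h2aa1 (14.95 and 7.86 CPM, 1.90-fold) and Hist1h4h (11.9 and 7.61 CPM, 1.56-fold). H2A genes therefore stood on both sides, and their sum was lower in HER2 late (log2 -0.20, -0.32 to -0.08), while H3 genes summed higher (0.73, 0.54 to 0.93).

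Between the wildtype libraries, 2 of 24 members were 1.5-fold or more higher at 32 weeks, against 7.65% of 9904 genes, and 9 were 1.5-fold or more lower, against 3.02%. Here the median log2 fold was -0.50 over the members and 0.16 over all genes. The 2 higher were Hist2h2aa1 (7.76 and 14.95 CPM, 1.93-fold) and Hist1h2ap (6.93 and 13.1 CPM, 1.90-fold), followed by Hist1h1c (88.7 and 102 CPM, 1.15-fold). The lowest were Hist1h2ak (7.76 and 1.81 CPM, 4.30-fold), Hist1h2ae (19.4 and 6.57 CPM, 2.94-fold) and Hist1h3e (3.97 and 1.11 CPM, 3.57-fold). In the same libraries 2 of 20 replication genes and 5 of 18 mitosis genes were 1.5-fold or more lower at 32 weeks. These counts include AM cells holding a T cell marker UMI, 196 in wildtype early and 22 in wildtype late.

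Between the HER2 libraries, 1 of 23 members was 1.5-fold or more higher at 32 weeks, against 1.5% of 9850 genes, and 4 were 1.5-fold or more lower, against 0.944%. The log2 fold had a median of -0.05 over the members and -0.01 over all genes, and the members' median turned to 0.24 without cells holding Top2a or Mcm6, 0.0748 with a limit of 200 UMIs and 0.0151 with AM cells cut at 1%. The highest by the interval bound were Hist1h1c (85.7 and 103 CPM, 1.20-fold), Hist1h2be (2.13 and 3.38 CPM, 1.59-fold) and Hist1h4i (14.4 and 17.6 CPM, 1.22-fold). The lowest were Hist1h2ae (18.9 and 8.62 CPM, 2.19-fold), Hist1h2ak (7.09 and 3.91 CPM, 1.81-fold) and Hist1h4h (11.5 and 7.61 CPM, 1.51-fold). Hist1h2ae and Hist1h2ak were thus lower at 32 weeks in both genotypes.

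**Figure D5:**
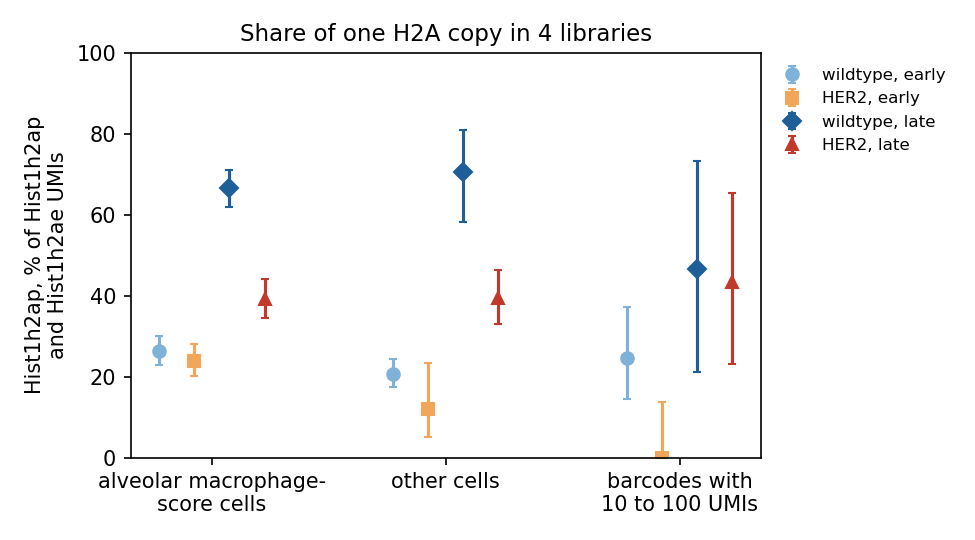
Share (percent) of Hist1h2ap in the UMIs of Hist1h2ap and Hist1h2ae together, in AM cells, other cells and barcodes with 10 to 100 UMIs (free RNA) of each library, with exact binomial 95% intervals. Wildtype late stands above the other libraries in AM cells and in other cells alike.

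The H2A genes that stood on opposite sides in wildtype late were followed into the other cells. Hist1h2ap made up 26.4, 24.0, 66.7 and 39.2% of the UMIs of Hist1h2ap and Hist1h2ae together in AM cells (exact binomial intervals 22.9 to 30.1, 20.1 to 28.1, 62.0 to 71.1 and 34.4 to 44.2%). In the other cells of the same libraries the share was 20.8, 12.1, 70.6 and 39.4%. The intervals of wildtype late lay above those of the other 3 libraries in both kinds of cell, and those of the 2 early libraries overlapped in both. Set against Hist1h2ak, the share of Hist1h2ap was 47.2, 45.6, 87.9 and 58.7% in AM cells and 44.1, 30.4, 88.9 and 56.2% in other cells. In free RNA the share against Hist1h2ae was 24.6, 0, 46.7 and 43.5%, from 61, 25, 15 and 23 UMIs, so its intervals were wide. Hist1h2ap and Hist1h2ak are near copies of each other by the criterion above, as are Hist1h2ae and Hist1h2ak, and a part of the split of reads between copies in these shares was not tested.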

How the data were processed

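UMI counts per gene and barcode were deposited as matrices of 4 libraries, made with Cell Ranger (file headers name version 4, the submitters' processing notes 5.0.1 and mm10). The signal values of the deposited table of averages, made by the authors per gene and group for 15906 genes, were used only as an alternative. Barcodes with 1000 or more UMIs, 500 or more genes and at most 10% mitochondrial UMIs were kept, which left 22258 cells with 22093833 to 32665775 UMIs per library. AM cells had 0.4% or more of their UMIs from 6 genes. No doublet caller was run, and an alternative left out the top 5% of cells by UMIs. CPM is UMIs scaled to the total UMIs of the same cells. Between libraries, with 1 per group, ratios of CPM carry exact binomial 95% intervals for counting error only.

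Contrasts within libraries used UMI sums per library (8 sums, genes with 30 or more UMIs) in edgeR 4.0.16 (R 4.3.3). Settings were TMM, the quasi-likelihood test, library as block and Benjamini-Hochberg over all genes at 5%. The same fit was run on simulated counts that held no differences between libraries in a gene's expected share, and no result here rests on it. The 4 libraries, of 4 different groups, are the replicates. The p-values measure only the spread between these libraries, which edgeR moderates for each gene with information shared over all genes. Alternatives included DESeq2 1.42.0. Near copies were searched with blastn 2.17.0. The members and lists were chosen with earlier results of these data known. Named are the 12 members with the most UMIs, the 3 highest and 3 lowest per comparison (6 for Top2a or Mcm6) and the 4 genes of each other list with the most UMIs. The split by both lists, the shares of copies, and the alternative without T cell marker cells were chosen after seeing the data, and genes named from them likewise.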

Additional observations from a re-analysis of the deposited data

Results flagged for a closer look

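For the following results the counting intervals of the HER2 to wildtype ratio in AM cells lay wholly on opposite sides of 0 at 16 and at 32 weeks. Each difference (late minus early, log2) rests on 1 library per group and was not tested. Only the 58 members and their sums were examined in this way. The share of all genes with such opposite intervals was not counted, so the list is not particular to histone genes. Over all clustered histone genes it was 0.38, from -0.19 at 16 weeks to 0.19 at 32 weeks. For H1 genes it was 0.34 (-0.27 to 0.07), for H2B genes 0.62 (-0.14 to 0.48) and for H3 genes 1.04 (-0.30 to 0.73). The widest of the single genes given here was Hist1h3c, an H3 gene with 98.6% of its AM UMIs in cells with Top2a or Mcm6, at 1.82 (-0.70 to 1.12). Hist3h2a followed with 1.15 (-0.41 to 0.75), Hist2h3c2 with 0.97 (-0.44 to 0.53), Hist1h1e with 0.85 (-0.39 to 0.46), Hist1h4d with 0.80 (-0.21 to 0.60) and Hist1h2bc with 0.66 (-0.13 to 0.53). Hist1h4h went the other way, with -0.94 (0.30 to -0.64). The opposite signs were lost for H1 genes with the mitochondrial limit at 5%, where the value at 32 weeks was -0.00082, and for Hist1h4d, where the value at 16 weeks was 0.0248 with that limit and 0.00632 with AM cells cut at 1%. T cell marker RNA in AM cells was 50.1 CPM in wildtype early and 3.001 to 4.09 CPM in the other libraries. Without AM cells holding such a UMI the log2 ratio over all clustered histone genes at 16 weeks was -0.13.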

How the results depend on the processing

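Of 226 values that answer a comparison under an alternative, 190 stayed within a tolerance and 36 moved past it, and the cause was not tested. The tolerance was the counting interval for a sum, 1.5 times for a count and, for a median, the half-width of a typical member's counting interval, which is wide enough to hold a change of sign. The members' median ranged from -0.25 to -0.07 at 16 weeks, from 0.18 to 0.35 at 32 weeks, from -0.59 to -0.30 between wildtype libraries and from -0.12 to 0.24 between HER2 libraries, so only the last changed sign. The summed log2 fold at 16 weeks (-0.19) was -0.15 with AM cells cut at 1%, -0.11 without cells holding Top2a or Mcm6, -0.13 without those holding a T cell marker UMI and -0.12 with the same weights for cells with and without Top2a or Mcm6. At 32 weeks (0.19) it was 0.23 without Gm42418 and mitochondrial UMIs, 0.23 without cells holding Top2a or Mcm6, 0.0918 without Hist1h2bc and 0.0485 without the 5 members with the most UMIs. Between wildtype libraries (-0.39) these were -0.27 (AM cut), -0.24 (no Top2a or Mcm6), -0.33 (no T cell marker), -0.33 (no Hist1h2bc) and -0.33 (same weights). Between HER2 libraries (-0.00) they were -0.0548 (mitochondrial limit 5%), 0.0659 (AM cut), 0.0386 (equal cells), 0.0431 (no top 5% of UMIs), 0.11 (no Top2a or Mcm6) and -0.13 (without 5 members).

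For Top2a or Mcm6, 37 members higher became 23 with a minimum of 100 UMIs and 19 thinned, and 6 lower became 3 with DESeq2, with no library block and thinned. Leaving out each library gave 26 to 32 higher and 4 to 6 lower. For AM against other cells, 18 lower became 31 with library totals and 30 with the AM cut, and 9 to 24 leaving out each library. For both lists, 30 higher became 15 with 100 UMIs, and 2 lower became 1 with DESeq2, 100 UMIs, no library block or 10 UMIs of each list, 4 with 3 UMIs of each list, and 1 to 2 leaving out each library. The contrasts within libraries are paired by the library block. Between libraries no replicated test was possible, because each group has 1 library.

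Single log2 folds that changed sign were as follows. Between genotypes at 16 weeks they were H2A 0.0307 (same weights) and Hist1h4d 0.0248 (mitochondrial limit 5%) and 0.00632 (AM cut), and at 32 weeks H1 -0.00082 (mitochondrial limit 5%) and Hist1h1b 0.13 (no Top2a or Mcm6). Between ages they were H2A 0.0148 in wildtype and 0.0736 in HER2 (no Top2a or Mcm6), Hist1h4i 0.35 and Hist1h4h -0.28 in wildtype (mitochondrial limit 5%), and Hist1h1e 0.0116 in HER2 (AM cut). For Top2a or Mcm6 they were Hist1h1c 0.0804 (Top2a alone), Hist3h2a 0.00889 and Hist2h3c1 0.0706 (split by the replication list), and Hist4h4 -0.0463 (mitochondrial limit 20%), -0.00877 (thinned), -0.14 (Mcm6 alone), -0.28 (replication list) and -0.0584 to 0.149 (leaving out each library, below 0 without either wildtype library). For AM against other cells they were Hist1h1d 0.0142 (no Top2a or Mcm6) and -0.423 to 0.0307 (leaving out each library, above 0 without HER2 late), Hist4h4 -0.21 (library totals) and -0.0603 (AM cut), and Hist2h2aa1 -0.12 and -0.18 likewise. For both lists it was Hist1h4i 0.61 (10 UMIs).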
